A study of Homo sapiens with 6 samples.

Results

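Superoxide dismutases, the copper chaperone for superoxide dismutase (CCS) and catalase form the chain of enzymes that turns superoxide into hydrogen peroxide and then into water and oxygen. The 5 genes SOD1, SOD2, SOD3, CCS and CAT were taken by symbol from the 17297 genes of the count table, and all 5 were found with at least 403 reads in every library. WTAP and ACAT2, whose annotated spans overlap that of SOD2, were read beside them. The libraries came from LNCaP, an established line of human prostate cancer cells, as 1 stable line expressing the empty retroviral construct (pBabe-vector, genotype WT) and 1 stable line expressing GNA13, the gene for the G protein subunit Gα13 (pBabe-GNA13, genotype GNA13 overexpression). Each line was grown on plates for 48 h as 3 biological replicates, so that the p-values measure the spread between cultures of a single line per condition. The study asked whether Gα13 acts on mitochondrial genes, SOD2 among them.

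Superoxide leaks mainly from the mitochondrial respiratory chain and from NADPH oxidases. SOD1 uses copper and zinc in the cytosol and in the space between the mitochondrial membranes, SOD2 uses manganese in the mitochondrial matrix, and SOD3 is secreted and again uses copper and zinc. CCS inserts copper into SOD1, and catalase, a haem enzyme of the peroxisome, removes the hydrogen peroxide that the dismutases make.

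Of the 5 genes, SOD3 alone was higher in every pBabe-GNA13 library than in every pBabe-vector library. SOD2, the mitochondrial enzyme, held nearly the same level in all 6 libraries, and its difference between the lines was smaller than the spread within pBabe-GNA13. SOD1, CCS and CAT also overlapped between the lines. CAT was slightly higher in pBabe-GNA13 in each of the 3 library pairs, as were 22.6% of all genes. It varied more between pairs than between lines. None of the 5 passed an adjusted p of 0.05 in edgeR's quasi-likelihood test (Benjamini-Hochberg over all 17297 genes), in DESeq2 or in limma-trend, and edgeR called 0.139% of all genes. SOD3 was the only member with an unadjusted p under 0.05 in edgeR, as 8.46% of all genes had. With the library pairs as a term of the fit (the replicate block), SOD3 passed and the other 4 did not, where 19.7% of all genes passed.

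Read totals ranged from 33002160 to 40628970 per library. Column headings tie 1 library of each line by the tag std and the others by the replicate number, which gives 3 pairs (std, replicate 2 and replicate 3). What the libraries of a pair have in common, in culture or in processing, is not given. GNA13 itself averaged 818 ± 69.6 CPM (read counts scaled by TMM to a common library size, SD, n = 3) in pBabe-GNA13, against 70.5 ± 5.72 CPM (SD, n = 3) in the pBabe-vector libraries. The 9 prostate luminal markers, KLK3 among them, summed to 5546 to 9175 CPM over the libraries. Markers of other cells were low but not even: the 3 basal markers summed to 4.49 to 8.26 CPM in pBabe-GNA13 and 2.38 to 2.48 CPM in pBabe-vector, the 3 fibroblast markers to 17.2 to 24.7 CPM and 11.6 to 23.2 CPM, and the 2 erythroid markers to 0.0881 to 36.2 CPM and 0.0 to 3.12 CPM. The 3 leukocyte markers were not analysed here. HBB, which encodes beta globin, was at 0 in both replicate 2 libraries, at 30.3 CPM in the pBabe-GNA13 std library and at 33.5 CPM in pBabe-GNA13 replicate 3. A positive log2 fold change below means higher in pBabe-GNA13, and all intervals of a difference are 95% intervals.

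In GRCh38 with the Gencode 44 annotation, SOD1 lies on chromosome 21 from 31659666 to 31668931 on the plus strand and SOD3 on chromosome 4 from 24789912 to 24800842 on the plus strand. CCS (66593153 to 66606019) and CAT (34438934 to 34472060) both lie on the plus strand of chromosome 11. SOD2 spans 93461 bases of chromosome 6, from 159669069 to 159762529, on the minus strand. That span is long because of upstream first exons: the MANE Select transcript of SOD2, the reference transcript shared by RefSeq and Gencode, starts at 159693241 and lies 32343 bases from WTAP and 68803 bases from ACAT2. All exon bases that SOD2 shares with these genes belong to other SOD2 transcripts. They come to 437 bases with WTAP and 133 bases with ACAT2, both on the opposite strand, which is 2.41% and 0.73% of the merged SOD2 exon bases. A further 939 bases (5.18%) are shared with SOD2-OT1, a noncoding RNA of the same strand. Whether strand was used in counting is not given in the sources used here, so reads from these shared bases cannot be assigned to 1 gene. The table holds 1499 symbols of an older style (RP11- names) than its stated Gencode release, so whether the upstream SOD2 exons were counted is not known. The exons of SOD1, SOD3, CCS and CAT share no base with another annotated gene.

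**Figure D1:**
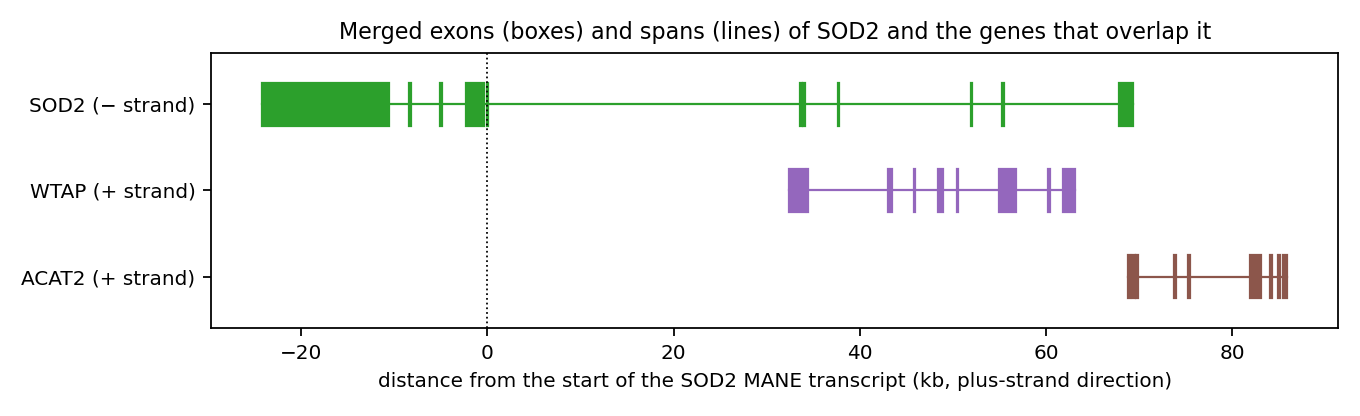
Merged Gencode 44 exons (boxes) and spans (lines) of SOD2, WTAP and ACAT2, by distance in kb from the start of the SOD2 MANE Select transcript, which runs to the left. The exons of that transcript lie left of 0, and WTAP and ACAT2 begin 32343 and 68803 bases to its right.

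Promoters are shown for SOD2, the mitochondrial enzyme that the study asked about, and for SOD3 and CAT. These last are the members that were higher in pBabe-GNA13 in 3 of 3 pairs, as were 22.6% of all genes. The windows are the 250 bases before the RefSeq start (GRCh38.p14) that matches the MANE Select transcript, for SOD2 at chr6:159693242-159693491 (minus strand), for SOD3 at chr4:24795323-24795572 (plus strand) and for CAT at chr11:34438684-34438933 (plus strand). Capitals mark the GC box GGGCGG, bound by SP1, and the CCAAT box, each on either strand. Motifs that overlap run together.
SOD2: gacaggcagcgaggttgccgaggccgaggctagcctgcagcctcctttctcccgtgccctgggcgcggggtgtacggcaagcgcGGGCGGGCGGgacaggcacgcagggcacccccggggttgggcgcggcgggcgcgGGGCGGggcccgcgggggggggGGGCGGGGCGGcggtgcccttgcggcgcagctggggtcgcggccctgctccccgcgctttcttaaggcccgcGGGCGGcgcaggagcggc
SOD3: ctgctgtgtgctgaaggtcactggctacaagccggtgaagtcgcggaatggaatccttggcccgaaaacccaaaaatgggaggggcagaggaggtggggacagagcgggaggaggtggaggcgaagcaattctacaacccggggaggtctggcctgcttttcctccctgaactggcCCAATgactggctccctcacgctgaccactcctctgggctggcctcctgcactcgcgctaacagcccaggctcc
CAT: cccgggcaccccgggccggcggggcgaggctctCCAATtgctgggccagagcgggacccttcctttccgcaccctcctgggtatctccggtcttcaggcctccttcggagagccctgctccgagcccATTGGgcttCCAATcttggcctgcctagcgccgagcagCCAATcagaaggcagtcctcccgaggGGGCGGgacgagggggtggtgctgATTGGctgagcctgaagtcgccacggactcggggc

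The SOD2 window had 80.8% G and C and held 6 GC boxes, 2 pairs of which overlap, and no CCAAT box. The SOD3 window had 61.6% G and C, no GC box and 1 CCAAT box. The CAT window held 5 CCAAT boxes and 1 GC box. The CCS window (chr11:66592935-66593184, plus strand) held neither, but was the only one of the 4 with the core of the antioxidant response element (TGACNNNGC, either strand), as TGACGAAGC at positions -65 to -57 from the start. The TATA box TATAAA was found in none of the 4. Of 35116 RefSeq promoter windows of this length, 42.6% held a GC box, 32.0% a CCAAT box, 10.9% the response element core and 10.7% the TATA box. The SOD1 promoter was not shown. Nor were the windows at other RefSeq starts of SOD2, which lie upstream. Those at chr6:159726951-159727200 and chr6:159762282-159762531 held 1 and 3 CCAAT boxes and 1 GC box each. The window at chr6:159727385-159727634 held 4 GC boxes and no CCAAT box. These matches describe letters only, and no measurement was made at the promoters here.

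Counts of different genes were compared per kilobase of the MANE Select transcript. On this scale SOD1 stood highest, with 230.2 CPM per kb over the 6 libraries (range 211 to 245). CAT followed at 64.3 CPM per kb (51.1 to 72.8) and CCS at 31.0 CPM per kb (25.3 to 35.1). SOD3 averaged 10.1 CPM per kb (8.37 to 13.6) and SOD2 4.82 CPM per kb (4.58 to 5.09). No 2 neighbours in this order overlapped in their ranges. The place of SOD2 rests on the length used, since its annotated coding transcripts run from 815 to 14167 bases. With the shortest coding transcript of each gene SOD2 came to 83.7 CPM per kb (79.6 to 88.6), above CAT and below SOD1 (238 CPM per kb, 218 to 253). The counts do not tell which SOD2 transcripts were present.

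SOD1 was nearly level between the lines. Its expression was 202, 189 and 219 CPM in the std, replicate 2 and replicate 3 libraries of pBabe-GNA13, and 203, 204 and 219 CPM in the matching pBabe-vector libraries. The ranges overlapped, and the replicate 3 libraries of both lines were the highest. The log2 fold change was -0.038 (interval -0.26 to 0.19, edgeR adjusted p = 0.995), and 3 of 3 pairs lay below 0, with differences of -0.0035, -0.11 and -0.0023 on the log2 scale. Only the replicate 2 pair carried a difference larger than the counting error of 1.08% to 1.25% per library, and 25.3% of all genes were lower in 3 of 3 pairs.

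SOD2 was the steadiest of the 5 genes. Its libraries read 72.2, 64.8 and 70.5 CPM in pBabe-GNA13 (std, replicate 2, replicate 3) and 67.9, 67.8 and 66.3 CPM in pBabe-vector. The pBabe-vector libraries lay close together and inside the range of the pBabe-GNA13 libraries. The coefficient of variation was 1.34% in pBabe-vector, below the counting error of 1.87% to 2.17%, and 5.55% in pBabe-GNA13. The fold between the lines was 1.03 with an interval of 0.894 to 1.18 (edgeR adjusted p = 0.988). With the replicate block the interval narrowed to 0.952 to 1.11 (edgeR adjusted p = 0.693). Differences within pairs were 0.088, -0.064 and 0.089 on the log2 scale. A change in total SOD2 reads inside these intervals cannot be told from no change with these libraries. The intervals are not adjusted for the number of genes tested, so a change somewhat outside them could also stay uncalled.

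SOD2 was also set against the genes that overlap it. WTAP, a subunit of the complex that methylates adenosine in mRNA, read 148, 106 and 121 CPM in pBabe-GNA13 and 146, 121 and 116 CPM in pBabe-vector. ACAT2, a cytosolic thiolase that makes acetoacetyl-CoA, read 57.8, 41.5 and 74.5 CPM and 58.4, 53.3 and 76.6 CPM. Both genes varied with the library pair. The pair term of the blocked fit had an edgeR adjusted p of 5.93e-05 for WTAP and 9.03e-08 for ACAT2, and of 0.599 for SOD2. The log2 ratio of SOD2 to WTAP was -0.84 ± 0.174 (SD, n = 3) in pBabe-GNA13 and -0.92 ± 0.166 (SD, n = 3) in pBabe-vector. This ratio was higher in pBabe-GNA13 by 0.079, in 3 of 3 pairs (exact two-sided permutation test, p = 0.50). The difference was -0.017 without pBabe-vector replicate 1, its std library. The ratio of SOD2 to ACAT2 was higher by 0.18, again in 3 of 3 pairs (exact two-sided permutation test, p = 0.50), and ranged from 0.0016 to 0.36 when 1 library was left out. Within pairs the differences were 0.073, 0.13 and 0.039 for the ratio to WTAP and 0.1, 0.3 and 0.13 for the ratio to ACAT2 (std, replicate 2, replicate 3). The exact test does not use the pairs, and 3 libraries against 3 cannot give an exact p below 0.10.

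SOD3 was the least abundant of the 5 genes in reads and the one that differed most. The pBabe-GNA13 libraries held 718, 496 and 501 reads (std, replicate 2, replicate 3) and the pBabe-vector libraries 497, 432 and 403. In CPM these were 19.2, 14.6 and 14.6 against 11.9, 12.8 and 12.6. The pBabe-vector values were tight and the pBabe-GNA13 std library stood above all others. Groups without overlap, pBabe-GNA13 above, were found for 7.3% of all genes, and 22.6% of all genes were higher in 3 of 3 pairs. The log2 fold change was 0.38 with an interval of 0.032 to 0.73, a fold of 1.3 (edgeR adjusted p = 0.534). The exact two-sided permutation test gave p = 0.10, the smallest possible here. With the replicate block the interval was 0.18 to 0.58 (edgeR adjusted p = 0.00603).

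The size of the SOD3 difference depended on the std pair. Within that pair it was 0.70 on the log2 scale, and within the pairs of replicates 2 and 3 it was 0.19 and 0.21. With the std pair left out of the blocked fit the log2 fold change was 0.21 (edgeR adjusted p = 0.191), and without the pBabe-GNA13 std library in the unblocked fit it was 0.24 (edgeR adjusted p = 0.950). Leaving out the replicate 2 or the replicate 3 pair gave 0.46 in both cases (edgeR adjusted p = 0.0005 and 0.00113 with the block). Limma-trend with the block did not call SOD3 (adjusted p = 0.193). Some markers of other cells also differed between the lines, not all of them in every pair. The basal marker KRT14 was at 4.26, 4.49 and 4.39 CPM in pBabe-GNA13 (std, replicate 2, replicate 3) and at 1.81, 2.48 and 1.81 CPM in pBabe-vector, without overlap. KRT5, also basal, was at 3.08, 0 and 3.72 CPM in pBabe-GNA13 and at 0.572, 0 and 0.592 CPM in pBabe-vector. Their part in the SOD3 result, and that of the erythroid and fibroblast markers, was not tested.

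**Figure D2:**
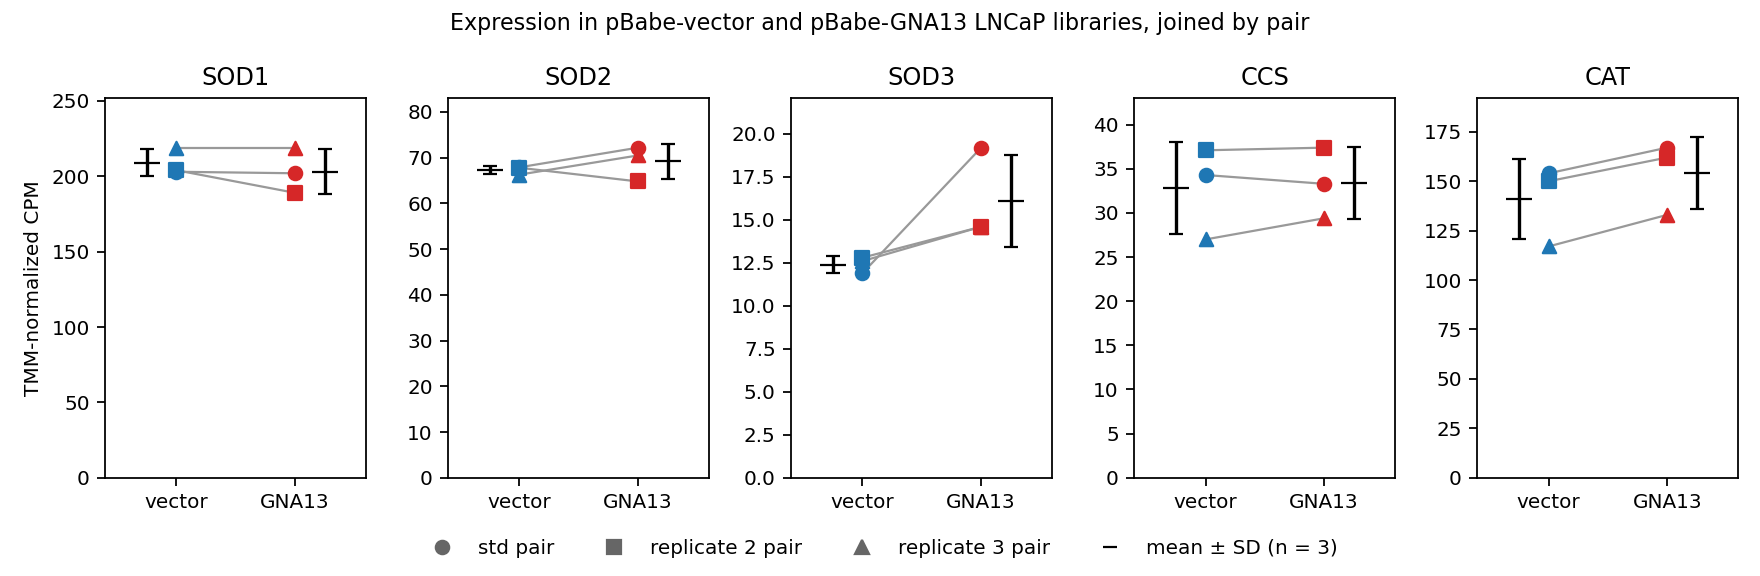
TMM-normalized CPM of SOD1, SOD2, SOD3, CCS and CAT in the 3 pBabe-vector (blue) and 3 pBabe-GNA13 (red) libraries, with lines joining libraries of a pair and black bars giving mean ± SD. The SOD3 groups do not overlap and the std pair has the steepest line, while the CAT lines run upward in parallel from 117 to 154 CPM in pBabe-vector.

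CCS, the chaperone of SOD1, overlapped widely between the lines. Its libraries read 33.3, 37.4 and 29.4 CPM in pBabe-GNA13 and 34.3, 37.1 and 27.0 CPM in pBabe-vector. The replicate 2 libraries were the highest and the replicate 3 libraries the lowest in both lines. The log2 fold change was 0.025 with an interval of -0.33 to 0.38 (edgeR adjusted p = 1), and its sign turned with the library left out, from -0.1 without pBabe-vector replicate 3 to 0.12 without pBabe-vector replicate 2. With the block the interval was -0.1 to 0.16 (edgeR adjusted p = 0.823).

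CAT, second to SOD1 per kilobase of MANE Select transcript, showed a small difference of one sign. Its libraries read 167, 162 and 133 CPM in pBabe-GNA13 and 154, 150.0 and 117 CPM in pBabe-vector. Each pBabe-GNA13 library lay above its own partner, but pBabe-GNA13 replicate 3 lay below 2 of the pBabe-vector libraries. Of all genes, 22.6% were higher in 3 of 3 pairs. The log2 differences within pairs were 0.11, 0.12 and 0.19. The log2 fold change was 0.13 with an interval of -0.2 to 0.46 (edgeR adjusted p = 0.915, exact two-sided permutation test p = 0.50). It was 0.019 without pBabe-vector replicate 3 and 0.24 without pBabe-GNA13 replicate 3 (edgeR adjusted p = 0.988 and 0.797). With the block the interval was 0.031 to 0.24, and the adjusted p in edgeR was 0.0618. When each chromosome was also centred on its own median (-0.049 for chromosome 11 in the blocked fit), the log2 fold change of CAT was 0.19 and it passed (edgeR adjusted p = 0.0141), where 13.9% of all genes did.

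For CAT and CCS the library pairs differed more than the lines. The pair means of CAT were 161 CPM (std), 156 CPM (replicate 2) and 125 CPM (replicate 3), and those of CCS were 33.8, 37.2 and 28.2 CPM. The pair term was called for both (edgeR adjusted p = 4.74e-05 for CAT and 0.000447 for CCS), as it was for 47.4% of all genes. It was not called for SOD1 (edgeR adjusted p = 0.102), SOD2 (0.599) or SOD3 (0.384). The replicate 3 libraries of both lines thus had the least CAT and CCS mRNA and, at 219 CPM in both lines, the highest SOD1 values.

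**Figure D3:**
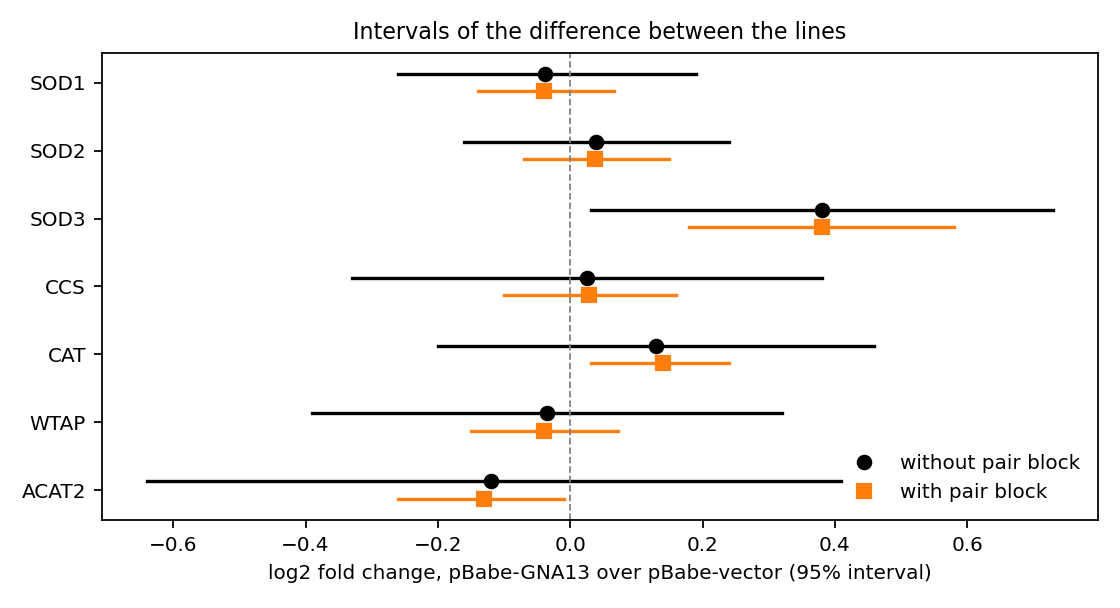
Log2 fold change of pBabe-GNA13 over pBabe-vector with its 95% interval for the 5 genes, WTAP and ACAT2, from edgeR without (black circles) and with (orange squares) the pair block. The SOD3 intervals lie above 0 in both fits, from 0.032 to 0.73 without the block, and the CAT interval clears 0 only with the block (0.031 to 0.24).

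**Figure D4:**
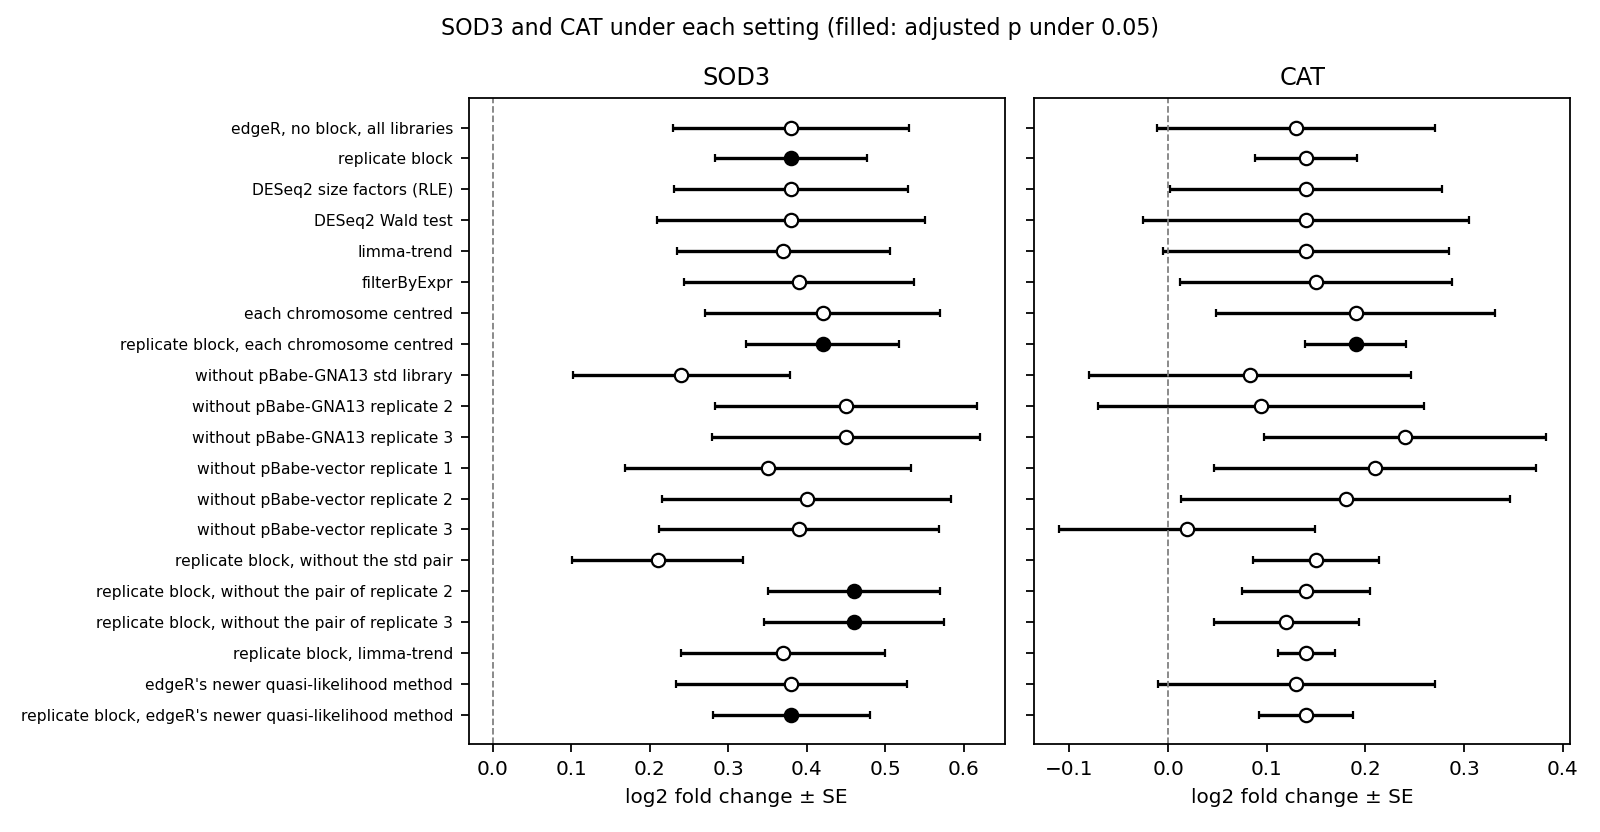
Log2 fold change ± SE of SOD3 and CAT under each way of fitting the counts, with filled circles where the adjusted p was under 0.05. Every SOD3 value lies between 0.21 and 0.46, and the lowest are those without the std library or pair, while CAT lies between 0.019 and 0.24.

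The nearest measured genes on each side of the members, some of them far away, were read as a comparison. CCDC149, whose span begins 2672 bases beyond that of SOD3 and which is read from the minus strand, was level between the lines (24.4 ± 1.06 CPM in pBabe-GNA13 and 24.2 ± 0.118 CPM in pBabe-vector, SD, n = 3 each). So was DHX15, 205358 bases away on the other side (264 ± 49.2 and 255 ± 51.0 CPM, SD, n = 3 each). ELF5, an ETS factor of secretory epithelia that lies 6731 bases after CAT, was at 2.97 ± 0.758 CPM in pBabe-GNA13 and 5.45 ± 1.4 CPM in pBabe-vector (SD, n = 3 each), which is -0.87 on the log2 scale (edgeR adjusted p of 0.392 unblocked and 5.26e-05 blocked). ABTB2, 80924 bases away on the other side of CAT, had -0.21 (edgeR adjusted p of 0.892 unblocked and 0.0271 blocked). CAT thus differed in sign from both of its neighbours. RBM14, after CCS, stood at 0.16 in log2 fold change (edgeR adjusted p of 0.958 unblocked and 0.0221 blocked), and CCDC87, whose span ends 90 bases before that of CCS, had -0.35 (edgeR adjusted p = 0.798). SCAF4, beside SOD1, had 0.072 (edgeR adjusted p = 0.975). FBXW11P1 and FNDC1, the remaining neighbours of SOD1 and SOD2 at 31066 and 396961 bases, had at most 19 and 5 reads in a library.

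Profiles over the 6 libraries were compared with those of the other genes with a mean of at least 10 CPM (9866 for each member), as the root mean square difference of log2 CPM centred on each gene's mean. The nearest to SOD2, whose own spread around its mean was 0.0517, were PSMB7 (0.016) and WIZ (0.0166), and the nearest to SOD1 (own spread 0.0729) were RNPS1 (0.0182) and SUPT6H (0.019). Those nearest to CCS (own spread 0.171) were ARAP1 (0.0301) and RAB2B (0.0352), and to CAT (own spread 0.176) ZNF585B (0.0269) and NSD1 (0.0274). SOD3 had no match as close: for an own spread of 0.229 its nearest were STYK1 (0.0782) and HIST1H1C (0.0806), with log2 fold changes of 0.51 and 0.47. These genes were chosen for their likeness over the same libraries, so their differences between the lines are a description.

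The genes that supply, feed or back up these enzymes were read from 6 lists, of whose 104 genes 88 were measured. Without the block edgeR called none of the 88, of which 11 had an unadjusted p under 0.05, as did 8.46% of all genes. With it 28 (31.8%) passed, 10 higher and 18 lower, beside 9.32% of all genes higher and 10.4% lower. With each chromosome centred as well, 18 passed, 8 higher and 10 lower, and 16 of these were among the 28. The median log2 fold change of the lists lay between -0.084 and 0.036, and that of all genes was -0.0013.

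Metals reach the dismutases through dedicated carriers. In the copper handling list, 3 of 18 genes (16.7%) passed with the block, beside 19.7% of all genes, and these were lower. ATP7A, the Golgi copper pump that loads secreted enzymes such as SOD3, had 31.7 ± 1.71 CPM in pBabe-GNA13 and 41.0 ± 2.77 CPM in pBabe-vector (SD, n = 3 each, -0.37 on the log2 scale, edgeR adjusted p of 0.338 unblocked and 4.55e-05 blocked). SOD3 and ATP7A thus differed in opposite directions. COX11, which carries copper to cytochrome c oxidase, had -0.21 (edgeR adjusted p of 0.566 unblocked and 0.00654 blocked). The third was ATOX1, the chaperone that hands copper to ATP7A, with -0.18 (edgeR adjusted p of 0.839 unblocked and 0.0238 blocked, named after its value was seen). In the manganese list 4 of 6 (66.7%) passed with the block. SLC39A14, an importer of manganese, zinc and iron, was lower (-0.31, edgeR adjusted p of 0.403 unblocked and 0.000164 blocked), as was TMEM165 (-0.17, edgeR adjusted p of 0.754 unblocked and 0.0207 blocked). SLC11A2, the proton-coupled divalent metal transporter, was higher (0.32, edgeR adjusted p of 0.515 unblocked and 4.1e-05 blocked). So was the manganese and zinc importer SLC39A8, at 0.35 unblocked (edgeR adjusted p = 0.969) and 0.32 blocked (edgeR adjusted p = 0.000167). Its libraries varied widely (70.0 ± 48.3 CPM in pBabe-GNA13 and 54.9 ± 34.6 CPM in pBabe-vector, SD, n = 3 each). TMEM165 and SLC39A8 were named after their values were seen.

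Catalase reaches the peroxisome through the import machinery, of whose 9 genes 3 (33.3%) passed with the block, beside 19.7% of all genes. PEX5, the receptor that carries catalase in, was higher (0.26, edgeR adjusted p of 0.466 unblocked and 0.00054 blocked). PEX10, a ubiquitin ligase that recycles this receptor, was lower (-0.51, edgeR adjusted p of 0.399 unblocked and 1.75e-06 blocked), and so was PEX26, named after its value was seen (-0.19, edgeR adjusted p of 0.00845 blocked). Among 18 measured sources of superoxide and hydrogen peroxide only MAOA, monoamine oxidase A, passed with the block (0.14, edgeR adjusted p of 0.932 unblocked and 0.0491 blocked, named after its value was seen). This is 5.56% of the measured sources. ACOX3, an oxidase of peroxisomal fatty acid breakdown, stood at -0.18 on the log2 scale (edgeR adjusted p of 0.853 unblocked and 0.0927 blocked).

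Of 18 genes listed for hydrogen peroxide removal beside catalase, 13 had a log2 fold change below 0 and 4 above. The remaining gene, GPX7, had no reads. Over all 17297 genes, 8707 lay below 0 and 8411 above. With the block 8 of 18 passed (44.4%, beside 19.7% of all genes), 7 lower and 1 higher. CAT itself did not pass with the block. It lay above 0 in every pair, as did 22.6% of all genes. With chromosomes centred as well, 3 of the 7 still passed as lower (PRDX2, GPX4 and GPX8). TXNRD1 passed as lower only once centred (-0.34, edgeR adjusted p of 2.15e-05 with the block). Before centring it stood at -0.046 in the blocked fit (edgeR adjusted p of 0.991 unblocked and 0.599 blocked). PRDX2, GPX4 and TXNRD1 were named after their values were seen. GPX8, a peroxidase of the endoplasmic reticulum, had 10.6 ± 2.41 CPM in pBabe-GNA13 and 27.1 ± 5.32 CPM in pBabe-vector (SD, n = 3 each, -1.35 on the log2 scale, edgeR adjusted p of 0.106 unblocked and 1.53e-11 blocked). TXN, the cytosolic thioredoxin, was the 1 that was higher (0.28, edgeR adjusted p of 0.462 unblocked and 0.000298 blocked). Of 19 measured regulators of the dismutase genes, 5 were higher and 4 lower with the block (47.4% together, beside 19.7% of all genes). NFKB2, a subunit of NF-kB, was lower (-0.41, edgeR adjusted p of 0.304 unblocked and 1.07e-05 blocked). SP1, the factor named for GC boxes such as those capitalized in the SOD2 window, was higher (0.36, edgeR adjusted p of 0.284 unblocked and 8.96e-06 blocked), while SOD2 was level.

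Of the genes just named, SP1, PEX5, SLC11A2 and TXNRD1 lie on chromosome 12. Its 622 genes with at least 1 CPM had a median log2 fold change of 0.29 in the blocked fit. Relative to that median SP1, PEX5 and SLC11A2 stood at 0.066, -0.036 and 0.032, and none of them passed (edgeR adjusted p = 0.469, 0.728 and 0.769 with the block). TXNRD1 was nearly level between the lines before centring and passed as lower only relative to that median. ATOX1, TMEM165 and PEX26 also no longer passed once centred (edgeR adjusted p = 0.074, 0.119 and 0.674 with the block). The chromosomes of the 5 members shifted little, with blocked medians of -0.040 (chromosome 21), -0.035 (chromosome 6), -0.045 (chromosome 4) and -0.049 (chromosome 11). After centring, SOD3 still passed with the block (0.42, edgeR adjusted p = 0.00339), and SOD2 stood at 0.073 (edgeR adjusted p = 0.422).

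**Figure D5:**
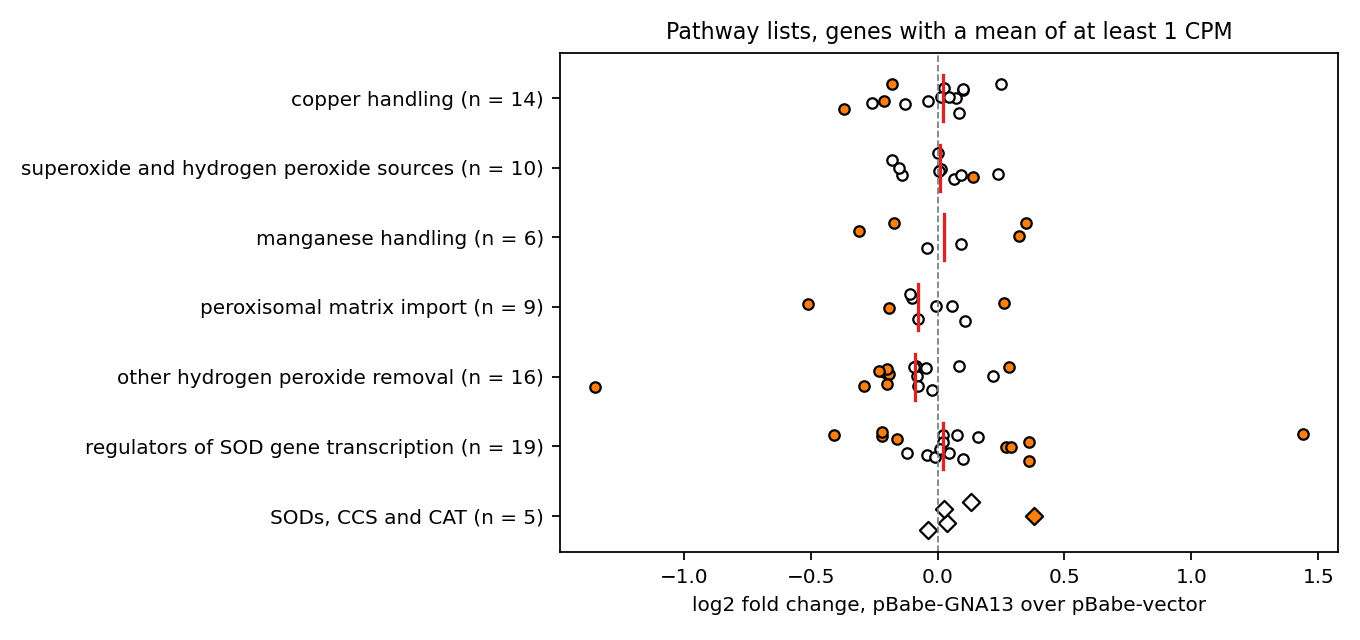
Log2 fold change of genes with a mean of at least 1 CPM in the 6 pathway lists (circles) and of the 5 members (diamonds), filled orange where the adjusted p was under 0.05 with the pair block, with red lines at each list's median. GPX8 at -1.35 lies farthest to the left, and of the diamonds only SOD3 is filled.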

How the data were processed

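RNA-seq libraries of LNCaP cells stably expressing pBabe-vector or pBabe-GNA13 (3 each) were analysed. Per the study's methods and the submitters' processing notes, the authors checked reads with FastQC 0.11.7, aligned them with STAR to the Gencode 38 transcriptome and counted them with featureCounts. The table's 1499 RP11- symbols are of an older style than that release, so the annotation counted is in doubt. The STAR version, the strand setting and the filter that set the table's genes are not given in the sources used here. What the authors deposited is a table of raw read counts by gene symbol, in whole numbers, although it is titled CPM.

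Counts were scaled by TMM (factors 0.963 to 1.05) and fitted with glmQLFit and glmQLFTest of edgeR 4.0.16 in R 4.3.3 (the earlier quasi-likelihood method), without a filter, with line as the only term. Standard errors were taken as log2 fold change over the root of F. Log2 CPM used a prior count of 2. Exact tests were made with SciPy 1.17.1. The script was tested on simulated data. There the unblocked fit recovered 2 of 100 genes changed 1.5-fold and 49 of 100 changed 2-fold, so genes uncalled without the block may still differ. The blocked fit recovered 94 and 100, with 12 false calls. The simulated counts were drawn from a model with the pair term, and only genes above a minimum mean CPM were changed. Recovery by the blocked fit was thus largely built in and does not test its calls in the real libraries. A count of 3, the floor, equals 0.0738 to 0.0909 CPM. Counting errors cover reads only, which are not independent molecules.

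Headings pair the libraries by replicate number and by the tag std, whose meaning is not given. The pBabe-GNA13 std library repeats the number of replicate 2 and is tied to its line only. Deviations from group means correlated across 12778 genes at 0.659 (std), 0.807 (replicate 2) and 0.888 (replicate 3) within pairs and at -0.736 to 0.125 otherwise. The pairs were therefore used as a block. Centring each group on its mean pushes the other correlations negative wherever those within pairs are positive, so this gap is partly built in.

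Symbols were matched to Gencode 44 (14468 of 17297, with RefSeq synonyms), and promoters were taken from RefSeq (4 of 5 members matched). Named genes are the members, WTAP, ACAT2 and GNA13, the 2 smallest p of each list (mean at least 1 CPM), the 2 nearest profiles and the adjacent genes; 1 gene that this rule names is not reported here. Members, lists and rules were chosen with earlier results of these data known. Alternatives were RLE factors, DESeq2 1.42.0, limma-trend (limma 3.58.1), filterByExpr, chromosome centring, the block and leaving out libraries or pairs.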

Additional observations from a re-analysis of the deposited data

How the results depend on the processing

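SOD2 kept its sign and stayed uncalled under all 19 alternatives (log2 fold change 0.016 to 0.084). SOD3 was positive in all 19 (0.21 to 0.46) and called only in 5 fits with the replicate block: all pairs (0.38), chromosomes centred (0.42), without the pair of replicate 2 or of replicate 3 (0.46 each), and the newer edgeR method (0.38). CAT was positive throughout and called with the replicate block and chromosomes centred (0.19). SOD1 turned positive with chromosomes centred (0.0017, or 0.00027 with the replicate block). CCS turned negative with the replicate block and without the pair of replicate 3 (-0.0044). WTAP turned with chromosomes centred (0.00011) and with the replicate block without the pair of replicate 2 (0.029). ACAT2 was called with the replicate block without the std pair (-0.19, edgeR adjusted p = 0.0237). Leaving out 1 library gave -0.087 to 0.012 for SOD1, 0.24 to 0.45 for SOD3, -0.1 to 0.12 for CCS, 0.019 to 0.24 for CAT, -0.17 to 0.074 for WTAP, -0.33 to 0.076 for ACAT2, and -0.017 to 0.18 for the ratio of SOD2 to WTAP (0.13 without pBabe-vector replicate 3).

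Genes called over the whole table numbered 24, and 3407 with the replicate block, 2397 with the block and chromosomes centred, 3266, 2550 and 2250 when the blocked fit left out the std, replicate 2 or replicate 3 pair, 433 with the block in limma-trend and 3129 with the block in edgeR's newer method. Without the block DESeq2 called 271, limma-trend 5, and leaving out 1 library 2 to 15. The block alone changed no call among the members other than SOD3, and with chromosomes centred it changed that of CAT too. The newer edgeR method, limma-trend with the block, the block for the list medians and the left-out libraries for the ratios were chosen after seeing the data. The cause of these changes was not tested.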
